A study of Mus musculus with 48 samples.

Results

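The miRNAs described here are 7 mouse miRNAs best known from cells of the immune system and from inflammation: mmu-miR-21, mmu-miR-146a, mmu-miR-155, mmu-miR-142-3p, mmu-miR-142-5p, mmu-miR-150 and mmu-miR-223. They were taken by name from the 1080 miRNAs on the array, of which 1023 were mouse miRNAs, and all 7 were present. Levels were measured in brain tissue of male wild-type C57BL/6J (WT) mice and male Tg2576 mice, a transgenic line that makes mutant (Swedish) APP from a prion protein promoter of hamster origin and accumulates amyloid with age. The samples fall into 8 groups of 3: WT cortex, Tg2576 cortex, WT whole brain and Tg2576 whole brain, each at 10 months (early amyloid accumulation) and at 17 months (plateau). Each group has 3 miRNA arrays and 3 mRNA arrays, so 24 arrays per assay, and the labels do not say whether the cortex and whole brain samples, or the arrays of both assays, share animals. The p-values therefore measure the spread between these samples.

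A miRNA guides a silencing complex to mRNAs that pair with its seed, bases 2 to 8 from its 5′ end, and lowers their translation and stability. In the brain, miR-155, miR-146a and miR-21 are known for their part in the response of microglia and astrocytes to inflammatory signals: miR-155 promotes cytokine production, whereas miR-146a is induced by NF-kB and damps the same pathway through Irak1 and Traf6. The other members mark blood-derived lineages. Both miR-142 arms come from a single hairpin that is active in cells of hematopoietic origin, including microglia, miR-150 is abundant in mature lymphocytes, and miR-223 is abundant in neutrophils and other myeloid cells.

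RefSeq mature sequences (build GRCm38.p6) were found for 6 of the 7 members. They are shown 5′ to 3′ with the seed in capitals, because the seed sets which mRNAs a miRNA can pair with. The 6 sequences have 6 different seeds, so no matched member shares its seed with another.
mmu-miR-21 (miR-21a-5p, chr11:86584120-86584141, minus strand): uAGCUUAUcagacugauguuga
mmu-miR-146a (miR-146a-5p, chr11:43374435-43374456, minus strand): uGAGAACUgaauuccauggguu
mmu-miR-155 (miR-155-5p, chr16:84714143-84714165, plus strand): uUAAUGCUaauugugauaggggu
mmu-miR-142-3p (miR-142a-3p, chr11:87756903-87756925, plus strand): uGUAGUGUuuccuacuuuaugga
mmu-miR-142-5p (miR-142a-5p, chr11:87756867-87756887, plus strand): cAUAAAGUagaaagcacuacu
mmu-miR-223 (miR-223-3p, chrX:96242884-96242905, plus strand): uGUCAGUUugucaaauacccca

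mmu-miR-146b is no member but carries the seed of miR-146a, and the pair differ at 2 positions counted from the 5′ end of miR-146a, G18A and U21C. Its sequence is set out here because its values are given beside those of miR-146a.
mmu-miR-146b (miR-146b-5p, chr19:46342790-46342811, plus strand): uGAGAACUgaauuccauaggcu

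The hairpin of Mir142 (chr11:87756864-87756927, plus strand, 64 bases) is shown because its arms, in capitals, are both members and gave different readings on the array.
Mir142: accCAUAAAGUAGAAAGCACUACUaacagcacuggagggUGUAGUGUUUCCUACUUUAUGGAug

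The level of a miRNA is the mean intensity of its 2 probes, expressed on the log2 scale after scaling. The scaling factor of an array was the 75th percentile of those 402 probes that every one of the 24 arrays read well above background. Values lower than -5.67 were set to that floor. A value therefore compares the same miRNA between arrays, and levels of different miRNAs are not compared. The 75th percentile itself ranged from 351 to 1604 intensity units and was lower in the WT cortices of 17 months (351 to 426) than in the Tg2576 cortices of that age (482 to 598). The neuronal miRNAs mmu-miR-124, mmu-miR-128 and mmu-miR-138 were well above background on all 24 arrays. The probe for mouse App differed by -0.02 (log2) between genotypes in the 17-month-old cortices, the 17-month-old whole brains and the 10-month-old cortices. In the 10-month-old whole brains it differed by 0.25, with an unadjusted p under 0.05 by limma. Whether this probe can bind the transgene's transcript was not tested.

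Of the 7 members, 5 were well above background on all 24 arrays: mmu-miR-21, mmu-miR-146a, mmu-miR-142-3p, mmu-miR-150 and mmu-miR-223. mmu-miR-155 was well above background on 0 of 24 arrays, with intensities from 0.0875 to 5.43, so it was not tested in any comparison and no direction can be given for it. mmu-miR-142-5p was well above background on 3 of 24 arrays, namely replicates 2 and 3 of the 10-month-old Tg2576 whole brains and replicate 2 of the 17-month-old Tg2576 whole brains, with intensities of 19.7, 17.5 and 14.6. The first 2 had the highest 75th percentiles of all 24 arrays (1532 and 1604). The third had 946, and whole brain replicate 1 of each genotype at that age, at 969.4 (WT) and 952.5 (Tg2576), did not read it well above background. The part of array brightness was not tested. After scaling, mmu-miR-142-5p was at the floor on all 24 arrays. The other arm of the same hairpin, mmu-miR-142-3p, was read on every array by both of its probes. The opposite strands miR-21*, miR-146a*, miR-155*, miR-150* and miR-223* were each well above background on 0 of 24 arrays.

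The 5 detected members differed in how far they stood from the floor. mmu-miR-21 ranged from 0.81 to 1.33 over the 24 arrays (log2 level) and mmu-miR-142-3p from -3.64 to -2.82, and both probes of each were well above background on 24 arrays. mmu-miR-146a ranged from -5.20 to -4.31, mmu-miR-150 from -4.99 to -4.07 and mmu-miR-223 from -4.73 to -3.96. For these last members 1 probe was well above background on 24 arrays and the other on 2 arrays for mmu-miR-146a, 7 for mmu-miR-150 and 14 for mmu-miR-223, so their levels rest mainly on a single probe.

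**Figure D1:**
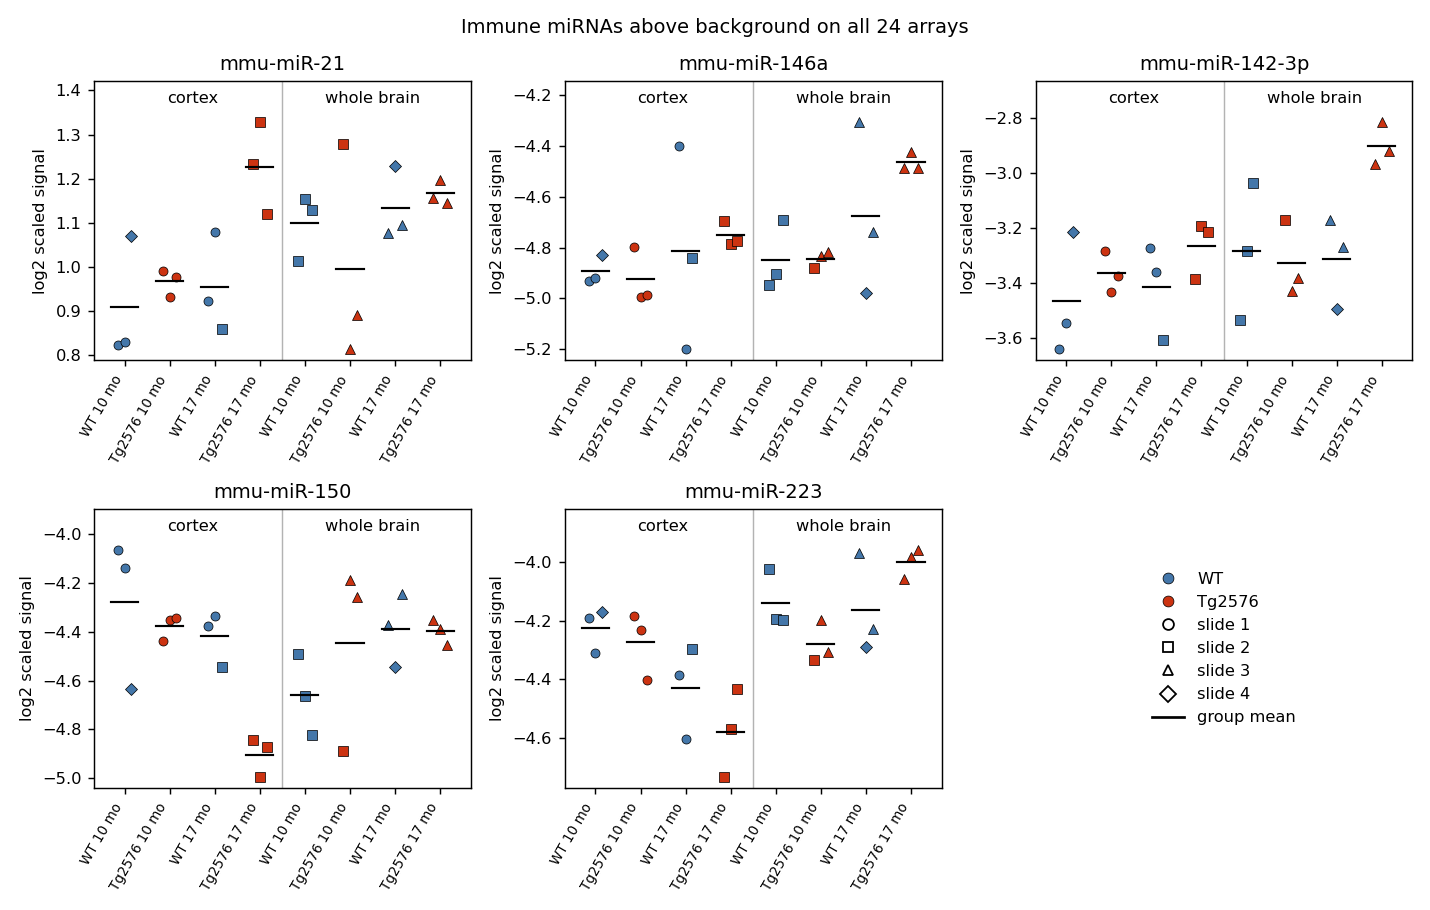
Log2 scaled signal of the 5 members detected on all 24 arrays, by group; each point is 1 array, its shape gives the slide, and the line is the mean of 3. mmu-miR-150 had its lowest mean in the 17-month-old Tg2576 cortices (-4.99 to -4.84). That range also held replicate 1 of the 10-month-old Tg2576 whole brains (-4.89). mmu-miR-142-3p was highest in the 17-month-old Tg2576 whole brains (-2.97 to -2.82).

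The first question was whether the members differ between genotypes in the cortex at the plateau of amyloid accumulation. In the 17-month-old cortices, mmu-miR-150 was lower and mmu-miR-21 higher in Tg2576 than in WT mice, in both cases without overlap of the 3 samples per genotype, and neither passed the adjusted threshold. mmu-miR-146a, mmu-miR-142-3p and mmu-miR-223 overlapped between genotypes. None of the 255 miRNAs tested passed an adjusted p of 0.05 (0%), while 37 (14.5%) had an unadjusted p under 0.05, 2 of the 5 members among them. Without overlap, 11.8% of all tested miRNAs were higher in Tg2576 mice and 10.2% lower, against 1 of 5 detected members on each side. The median difference was 0.06 over the members and 0.00 (-0.0028) over all miRNAs tested. In bulk tissue, fewer cells of a type and less RNA per cell cannot be told apart.

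mmu-miR-150, the lymphocyte miRNA, measured -4.38, -4.34 and -4.54 in the WT cortices of 17 months and -4.84, -4.99 and -4.87 in the Tg2576 cortices. After scaling, every Tg2576 sample lay below every WT sample. Before scaling the intensities overlapped, at 18.8, 17.4 and 18.3 in WT and 20.8, 15.1 and 18.1 in Tg2576 cortices. The 75th percentiles that scaled them were lower in WT (351 to 426) than in Tg2576 cortices (482 to 598). The scaled difference was -0.48 (SE 0.08, 95% interval -0.68 to -0.29), or 1.40-fold lower, with an adjusted p of 0.184 by limma. Its brighter probe gave -0.44, and the other gave 0, at the floor. Scaled over all probes the difference was 0.01, where the median of all miRNAs lay at 0.47, so that mmu-miR-150 was at -0.46 relative to that median. Without WT replicate 3 it was -0.55 with an adjusted p of 0.0252, and without any other array the adjusted p lay between 0.14 and 0.563.

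The level of this miRNA also went with the slide. On slide 2, which held the 3 Tg2576 cortices of 17 months, WT cortex replicate 3 of that age and 4 whole brains of 10 months, mmu-miR-150 ranged from -4.99 to -4.49, below all 7 arrays of slide 1 (-4.44 to -4.07) and all 7 of slide 3 (-4.46 to -4.19). Within slide 2 the 3 Tg2576 cortices differed from the single WT cortex by -0.36. With the slide as a block that difference had an adjusted p of 0.66. The part of the slide in the genotype difference was not tested beyond these values.

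mmu-miR-21, which rises in reactive astrocytes and many other stressed cells, measured 0.92, 1.08 and 0.86 in the WT cortices of 17 months and 1.23, 1.33 and 1.12 in the Tg2576 cortices. The lowest Tg2576 sample exceeded the highest WT sample by a narrow margin. The difference was 0.27 (SE 0.09, 95% interval 0.06 to 0.48), or 1.21-fold, with an adjusted p of 0.241. Scaled over all probes it was 0.76 (adjusted p = 0.0145), or 0.29 relative to the median of all miRNAs, and 160 of 255 miRNAs were then called. Its probes gave 0.29 and 0.21, and within slide 2 the difference was 0.37 against 1 WT cortex.

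The remaining members overlapped between genotypes in the 17-month-old cortices. mmu-miR-142-3p measured -3.27, -3.36 and -3.61 in WT and -3.38, -3.19 and -3.21 in Tg2576 mice, a difference of 0.15 (SE 0.11, adjusted p = 0.549), or -0.12 with normexp background correction. mmu-miR-223 measured -4.39, -4.60 and -4.30 in WT and -4.73, -4.57 and -4.43 in Tg2576 mice, a difference of -0.15 (SE 0.11, adjusted p = 0.577). For both, the middle of the range was shared by the genotypes. mmu-miR-146a spread from -5.20 to -4.40 among the WT cortices and only from -4.79 to -4.69 among the Tg2576 cortices, with a difference of 0.06 (95% interval -0.40 to 0.53), which was negative with the authors' log2 values (-0.03), with normexp (-0.26), with a floor 2 times higher (-0.09) and without WT replicate 2 (-0.13). Without WT replicate 1 it was 0.27. mmu-miR-146b, of the same seed, differed by 0.08 (adjusted p = 0.593).

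In the whole brains of 17 months, the member that stood apart was mmu-miR-142-3p. It measured -3.17, -3.49 and -3.27 in WT and -2.97, -2.82 and -2.92 in Tg2576 mice. All 3 Tg2576 values were above all WT values. The difference was 0.41 (SE 0.10, 95% interval 0.17 to 0.65), or 1.33-fold, with an adjusted p of 0.779 among 339 miRNAs, since none of them passed (0%) and 5.01% had an unadjusted p under 0.05. Without overlap, 7.67% of all tested miRNAs were higher in the Tg2576 whole brains. Its probes gave 0.42 and 0.40, and within slide 3 (2 WT and 3 Tg2576 whole brains) the difference was 0.32.

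The other detected members overlapped in the 17-month-old whole brains. The median difference of the members was 0.16, against 0.03 over all miRNAs. The differences were 0.21 for mmu-miR-146a, 0.16 for mmu-miR-223, 0.03 for mmu-miR-21 and -0.01 for mmu-miR-150, all with adjusted p over 0.8. mmu-miR-150 measured -4.37, -4.54 and -4.25 in WT and -4.35, -4.39 and -4.46 in Tg2576 mice, and all 3 Tg2576 values lay within the WT range. The difference between tissues was tested as an interaction: for mmu-miR-150 the genotype difference was lower in cortex than in whole brain by 0.47 on the log2 scale (-0.47, SE 0.12, adjusted p = 0.265; 0.11 when scaled over all probes), and for mmu-miR-21 it was higher by 0.24 (adjusted p = 0.364). These are 2 of 5 members at an unadjusted p under 0.05, against 13.3% of all 339 miRNAs, and 1 of the 339 (0.295%) passed the adjusted threshold, mmu-miR-222, which is no member.

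At 10 months no member was called in either tissue (0% of 317 miRNAs in cortex and 0% of 372 in whole brain). In cortex, the differences of Tg2576 from WT mice lay between -0.10 (mmu-miR-150) and 0.10 (mmu-miR-142-3p), and all 5 members overlapped. mmu-miR-150 was -4.07, -4.14 and -4.63 in the WT cortices of 10 months, the last on another slide, and -4.44, -4.35 and -4.34 in the Tg2576 cortices. Within slide 1, without that WT sample, its difference was -0.28 instead of -0.10, that of mmu-miR-142-3p 0.23 instead of 0.10 and that of mmu-miR-21 0.14 instead of 0.06.

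In the whole brains of 10 months, mmu-miR-223 measured -4.02, -4.20 and -4.20 in WT and -4.33, -4.20 and -4.31 in Tg2576 mice. The groups were separated by less than 0.01, so they did not overlap, with a difference of -0.14 (SE 0.08, adjusted p = 0.788). Of all miRNAs, 2.42% were lower in these Tg2576 whole brains without overlap. mmu-miR-150 was -4.89 in replicate 1 of the Tg2576 whole brains, on slide 2, and -4.19 and -4.26 in replicates 2 and 3, on slide 3, a spread wider than its genotype difference of 0.21. Within slide 2, which holds only replicate 1 of these Tg2576 whole brains, the signs were opposite, at -0.23 for mmu-miR-150 and at 0.18 instead of -0.10 for mmu-miR-21. Interactions of genotype with tissue at 10 months called no miRNA (0%).

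**Figure D2:**
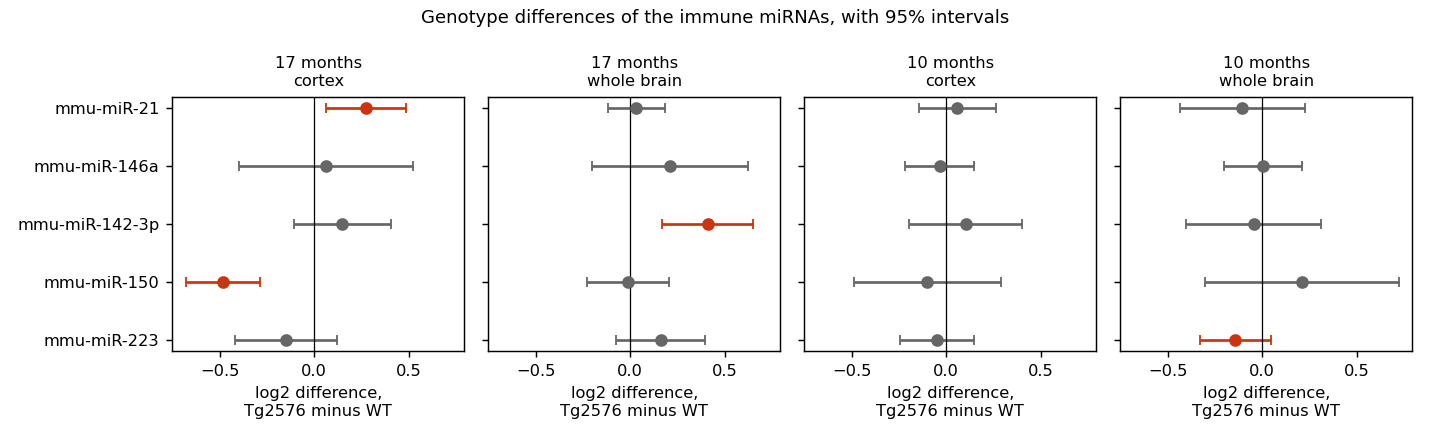
Log2 difference of Tg2576 minus WT mice for the 5 detected members in each tissue and age, with 95% intervals from limma (3 against 3 arrays); red marks groups that did not overlap. At 17 months mmu-miR-150 in cortex (-0.48), mmu-miR-21 in cortex (0.27) and mmu-miR-142-3p in whole brain (0.41) have intervals that exclude 0, before adjustment over all miRNAs.

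The next question was how the members change between 10 and 17 months. In Tg2576 cortices, mmu-miR-150 fell with age and passed the adjusted threshold: the 10-month values of -4.44, -4.35 and -4.34 were all above the 17-month values of -4.84, -4.99 and -4.87. The change was -0.53 (SE 0.06, adjusted p = 0.0149), or 1.44-fold lower. This was 1 of 5 members called, against 25 of 289 miRNAs (8.65%). With an unadjusted p under 0.05 there were 4 members, against 26.3% of all miRNAs, and the same 4 did not overlap between ages: mmu-miR-21 (0.26, adjusted p = 0.0658) and mmu-miR-146a (0.17, adjusted p = 0.183) were higher at 17 months, mmu-miR-150 and mmu-miR-223 (-0.31, adjusted p = 0.113) lower. Without overlap, 15.2% of all miRNAs were higher and 15.6% lower. All 3 young Tg2576 cortices were on slide 1 and all 3 old on slide 2, so age and slide cannot be told apart here. The call of mmu-miR-150 was lost with the authors' log2 values, with quantile normalization, with scaling over all probes (-0.07, adjusted p = 0.753) and with normexp background correction, where the difference was 0.01. Scaled over all probes, mmu-miR-21 and mmu-miR-146a were called as higher at 17 months instead, with 103 of 289 miRNAs called. The call of mmu-miR-150 was also lost with no filter, with the replicate block, with all 12 arrays in 1 model (adjusted p from 0.0523 to 0.0672), and without Tg2576 replicate 1 or 3 of 10 months or replicate 1 of 17 months (adjusted p from 0.0508 to 0.0744).

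In WT cortices, no miRNA was called with age (0% of 312), and the members' differences lay between -0.21 (mmu-miR-223) and 0.08 (mmu-miR-146a). For mmu-miR-150 the change in WT cortices was -0.14, and the interaction of genotype and age was -0.38 (SE 0.19, adjusted p = 0.495, with 0% of 317 miRNAs called). The decline with age in Tg2576 cortices is therefore not shown to differ from that in WT cortices.

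In Tg2576 whole brains, 3 of the 5 detected members were higher at 17 than at 10 months without overlap, although no miRNA of 372 passed the adjusted threshold (0%). mmu-miR-146a measured -4.88, -4.83 and -4.82 at 10 months and -4.48, -4.42 and -4.49 at 17 months, a difference of 0.38 (SE 0.05, adjusted p = 0.158), or 1.30-fold. mmu-miR-142-3p measured -3.17, -3.43 and -3.38 at 10 months, against -2.97, -2.82 and -2.92 at 17 months, a difference of 0.43 (SE 0.09, adjusted p = 0.257). mmu-miR-223 was higher by 0.28 (SE 0.06, adjusted p = 0.31). Of all miRNAs, 4.84% had an unadjusted p under 0.05 and 6.45% were higher without overlap.

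Replicate 1 of the 10-month-old Tg2576 whole brains stood apart from the other 2 in brightness (75th percentile 494.5, against 1532 and 1604) and slide. Without it the age differences were 0.36 for mmu-miR-146a, 0.50 for mmu-miR-142-3p, 0.25 for mmu-miR-223 and 0.31 for mmu-miR-21, with adjusted p of 0.0617, 0.0617, 0.232 and 0.0864. For mmu-miR-150 the difference was 0.05 with that array and -0.18 without it.

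In WT whole brains 1 of 335 miRNAs was called with age (0.299%) and no member. The interaction of genotype and age in whole brain was 0.45 for mmu-miR-142-3p (SE 0.18) and 0.30 for mmu-miR-223 (SE 0.12), both with an adjusted p of 1. These are 2 of 5 detected members at an unadjusted p under 0.05, against 2.41% of all 373 miRNAs, of which none was called (0%).

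Cortex was also compared with whole brain within each genotype and age. In Tg2576 mice of 17 months, 4 of 5 members were lower in cortex and passed the adjusted threshold, against 25 of 330 miRNAs (7.58%). The differences of cortex minus whole brain were -0.58 for mmu-miR-223 (SE 0.08, adjusted p = 0.0322), -0.51 for mmu-miR-150 (SE 0.06, adjusted p = 0.0154), -0.36 for mmu-miR-142-3p (SE 0.07, adjusted p = 0.0444) and -0.29 for mmu-miR-146a (SE 0.04, adjusted p = 0.0339). mmu-miR-21 differed by 0.06. The same 4 members had an unadjusted p under 0.05 (23.3% of all miRNAs) and were lower without overlap (22.7%).

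For mmu-miR-223 the cortices measured -4.73, -4.57 and -4.43 and the whole brains -4.06, -3.98 and -3.96. All 3 cortices were on slide 2 and all 3 whole brains on slide 3, so tissue and slide cannot be told apart. With the replicate number as a block, mmu-miR-146a no longer passed (adjusted p = 0.0815). None of the 4 members was called after quantile normalization, median scaling, normexp correction or with the authors' log2 values. Under scaling by the 75th percentile over all probes, all 4 had a positive sign with the median of all miRNAs at 0.55: relative to that median, mmu-miR-223 was at -0.44 and mmu-miR-150 at -0.37. The members called under that scaling were mmu-miR-146a, in the opposite direction (0.40, adjusted p = 0.0285), and mmu-miR-21 (0.75, adjusted p = 0.00863), with 206 of 330 miRNAs called. Leaving out any of the 6 arrays left between 0 and 2 members called: 0 without whole brain replicate 1 or 2 or cortex replicate 1 (0, 1 and 0 of 330 miRNAs called), 1 without whole brain replicate 3 or cortex replicate 2 (10 and 6 of 330), and 2 without cortex replicate 3 (7 of 330).

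No member was called between tissues in the other groups, where 2.83% (WT, 10 months), 0.267% (Tg2576, 10 months) and 1.8% (WT, 17 months) of the miRNAs were called. In WT mice of 17 months, mmu-miR-223 was lower in cortex without overlap, at -4.39, -4.60 and -4.30 in cortex and -3.97, -4.29 and -4.23 in whole brain, a difference of -0.27 (SE 0.12, adjusted p = 0.357). Of all miRNAs, 9.28% were lower in those cortices without overlap.

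Ordered by mean level, the groups rarely separated from their neighbours. mmu-miR-150 had its lowest mean in the Tg2576 cortices of 17 months (-4.90, SD 0.08). They did not overlap with the next group by mean, the WT whole brains of 10 months (-4.66, SD 0.17). Replicate 1 of the Tg2576 whole brains of 10 months (-4.89), a group further up the order, lay within the range of those cortices (-4.99 to -4.84). Each later neighbour in the order overlapped the one before it, up to the WT cortices of 10 months (-4.28, SD 0.31). mmu-miR-142-3p was highest in the Tg2576 whole brains of 17 months (-2.90, SD 0.08), apart from the next group, the Tg2576 cortices of 17 months (-3.26, SD 0.11), and its other neighbours overlapped. For mmu-miR-21, mmu-miR-146a and mmu-miR-223 every neighbouring pair of groups overlapped. mmu-miR-21 ran from 0.91 in the WT cortices of 10 months to 1.23 in the Tg2576 cortices of 17 months, mmu-miR-146a from -4.93 in the Tg2576 cortices of 10 months to -4.46 in the Tg2576 whole brains of 17 months, and mmu-miR-223 from -4.58 in the Tg2576 cortices to -4.00 in the Tg2576 whole brains, both of 17 months.

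The miRNAs with the most similar profiles were sought among the 230 others that were well above background on all 24 arrays, by Pearson correlation over the 24 arrays, which share slides, groups and scaling, so the coefficients are descriptions. mmu-miR-21 was most like mmu-miR-338-3p (r = 0.92), an oligodendrocyte miRNA, then mmu-miR-210 (0.82) and mmu-miR-29c* (0.78). mmu-miR-150 was most like mmu-miR-186 (0.86), mmu-miR-9 (0.85) and mmu-miR-99b (0.84). With the group means taken out, the first of these coefficients were 0.90 for mmu-miR-338-3p and 0.85 for mmu-miR-186, so the likeness lay also within groups. mmu-miR-146a was most like the endothelial mmu-miR-126-3p (0.72), mmu-miR-142-3p was most like mmu-miR-146a (0.67), and mmu-miR-223 was most like mmu-miR-199a-3p (0.62). Among the members themselves, mmu-miR-21 and mmu-miR-150 ran in opposite directions (r = -0.73).

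**Figure D3:**
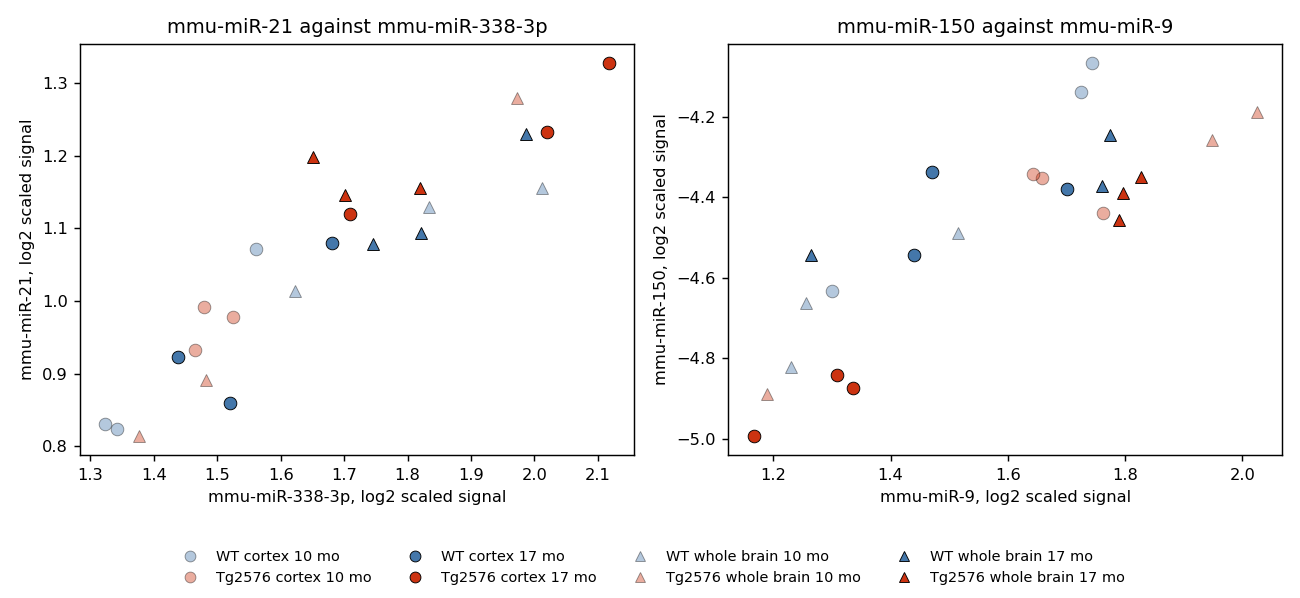
mmu-miR-21 against mmu-miR-338-3p and mmu-miR-150 against mmu-miR-9, log2 scaled signal on the 24 arrays (circles cortex, triangles whole brain, pale 10 months, full 17 months). The Pearson correlations are 0.92 and 0.85, and arrays of the same group are spread along each relation.

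In the 17-month-old cortices the 3 oligodendrocyte miRNAs tested were higher in Tg2576 mice without overlap, by 0.78 (mmu-miR-219-5p), 0.56 (mmu-miR-219-3p) and 0.40 (mmu-miR-338-3p), with adjusted p of 0.184, 0.224 and 0.241. Over all 255 miRNAs tested there, 11.8% were higher without overlap. mmu-miR-338-3p measured 1.44, 1.68 and 1.52 in WT and 2.02, 2.12 and 1.71 in Tg2576 cortices, the same order of samples as for mmu-miR-21 among the Tg2576 mice. In the 17-month-old whole brains, where mmu-miR-21 differed by 0.03, the same list had differences from -0.13 to 0.07. Among 10 oligodendrocyte mRNAs, a list added after these values were seen, the differences in the 17-month-old cortices ranged from -0.61 to 0.72 with a median of 0.29. There, 8 of these mRNAs were higher, 4 with an unadjusted p under 0.05, and 2 lower, 1 with such a p. Their summed level, the log2 of the sum of their values before log2, was 8.02 to 8.28 in Tg2576 and 7.81 to 7.99 in WT cortices. Brighter genes weigh more in such a sum. In the 17-month-old whole brains 8 of the 10 were lower in Tg2576 mice, 5 of these with an unadjusted p under 0.05, and the median was -0.20. The part of oligodendrocytes in the difference of mmu-miR-21 was not tested.

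Of 13 other miRNAs known from inflammation tested in the 17-month-old cortices, 4 were higher and 9 lower in Tg2576 mice, none passed the adjusted threshold, and 4 had an unadjusted p under 0.05: mmu-miR-34a (0.67), mmu-miR-9 (-0.27), mmu-miR-221 (-0.24) and mmu-miR-222 (-0.44). Over all 255 miRNAs tested there, 14.5% had an unadjusted p under 0.05. The list's median was -0.07. The erythroid mmu-miR-451, a gauge of blood left in the tissue, ranged from -3.61 to 1.22 over all arrays and differed by -0.52 in the 17-month-old cortices (adjusted p = 0.605). Its range was wider than that of any detected member, and its correlation with mmu-miR-223 over the 24 arrays was 0.21.

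The mRNA arrays give the immune genes and targets that go with these miRNAs. In the 17-month-old cortices, 0 of 38889 probes passed the adjusted threshold by limma (0%) and 9.32% had an unadjusted p under 0.05. In the 17-month-old whole brains the shares were 0% and 13% of 36978 probes. At 10 months they were 0% and 9.95% of 39628 probes in cortex and 0% and 11.4% of 38108 probes in whole brain. The lists below are therefore described by counts and medians, beside a median over all probes of 0.01 (log2) in both tissues at 17 months.

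Genes of plaque-associated microglia were higher almost throughout in the 17-month-old cortices. Of 19 measured genes, 18 were higher in Tg2576 mice and 10 had an unadjusted p under 0.05, with a median of 0.30 (log2 difference). Cst7, an inhibitor of lysosomal proteases, measured -4.82, -4.24 and -4.96 in WT and -1.89, -2.76 and -1.19 in Tg2576 cortices, a difference of 2.73 (SE 0.41, adjusted p = 0.442). Every Tg2576 value lay above every WT value. Itgax was higher by 1.12, Ccl6 by 1.05, Lgals3 by 0.68 and Ctsd by 0.30, with adjusted p between 0.403 and 0.502. In the whole brains of 17 months, 12 of the 19 were higher and 7 lower, with Cst7 at 2.25 and a list median of 0.07. Of the higher genes 7 had an unadjusted p under 0.05, and of the lower genes 4. At 10 months Cst7 differed by 0.51 in cortex and 0.39 in whole brain.

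Markers of all microglia, which express miR-142, were split more evenly. In the 17-month-old cortices, 12 of 18 were higher and 3 had an unadjusted p under 0.05, with a median of 0.06: Ctss (0.37), C1qc (0.40) and C1qa (0.27). Ctss, a lysosomal protease, was 3.11, 3.02 and 3.07 in WT and 3.39, 3.52 and 3.41 in Tg2576 cortices. In the 17-month-old whole brains, where mmu-miR-142-3p was higher by 0.41, 15 of 18 markers were higher and 3 lower, with a median of 0.20. Of the higher markers 7 had an unadjusted p under 0.05, and of the lower markers 2. The summed level of all 18, in which brighter genes weigh more, was 8.41 to 8.54 in those Tg2576 whole brains and 8.30 to 8.31 in WT. The part of microglial number in the level of mmu-miR-142-3p was not tested.

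Reactive astrocyte genes were higher in the 17-month-old Tg2576 cortices for 8 of 9 measured, 4 of them with an unadjusted p under 0.05, with a median of 0.19. Gfap, the intermediate filament of astrocytes, was higher by 0.66, C4b by 0.62, Lcn2 by 0.50 and Serpina3n by 0.38, with adjusted p of 0.502. In whole brain the median was 0.46, with Gfap at 0.27. NF-kB and cytokine genes, the pathway that miR-146a and miR-155 act on, were split: 10 of 18 were higher and 8 lower in the 17-month-old cortices, with a median of 0.04. Tlr2 (0.48), Irf8 (0.44) and Tgfb1 (0.23) were higher and Tnfaip3 (-0.26) lower at an unadjusted p under 0.05.

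Markers of blood-borne cells are given beside the miRNAs of those lineages. Neutrophil genes were higher for 6 of 7 measured in the 17-month-old Tg2576 cortices (median 0.32), where mmu-miR-223 differed by -0.15, and for 7 of 8 in the whole brains (median 1.10), where it differed by 0.16. S100a9 was 1.42, -0.42 and 1.19 in the Tg2576 whole brains of 17 months and -0.46, -0.61 and -0.56 in WT, and Tg2576 replicates 1 and 3 stood far above the rest. In the whole brains of 10 months, 0 of 6 neutrophil genes were higher in Tg2576 mice (median -0.56). In cortex at that age 3 were higher and 3 lower. The summed level of the neutrophil list reached 2.39 among the WT whole brains of 10 months and 2.41 among the Tg2576 whole brains of 17 months. T cell genes were lower for 5 of 6 measured in the 17-month-old cortices (median -0.22), with Lck (-0.28) the only one at an unadjusted p under 0.05, and higher for 5 of 6 in the whole brains (median 0.15). Of the B cell genes, 3 were measured in the 17-month-old cortices, and 2 of them were higher. The summed level of the B cell list there was -2.85 to -2.60 in Tg2576 and -2.93 to -2.66 in WT mice, with 3 of 6 genes above background on every one of these arrays. The part of lymphocytes in the level of mmu-miR-150 was not tested. Erythroid genes were lower for 5 of 5 measured in the 17-month-old cortices (median -0.82), none with an unadjusted p under 0.05. The summed level of the erythroid list overlapped there, at 3.17 to 5.74 in Tg2576 and 5.40 to 5.71 in WT mice.

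**Figure D4:**
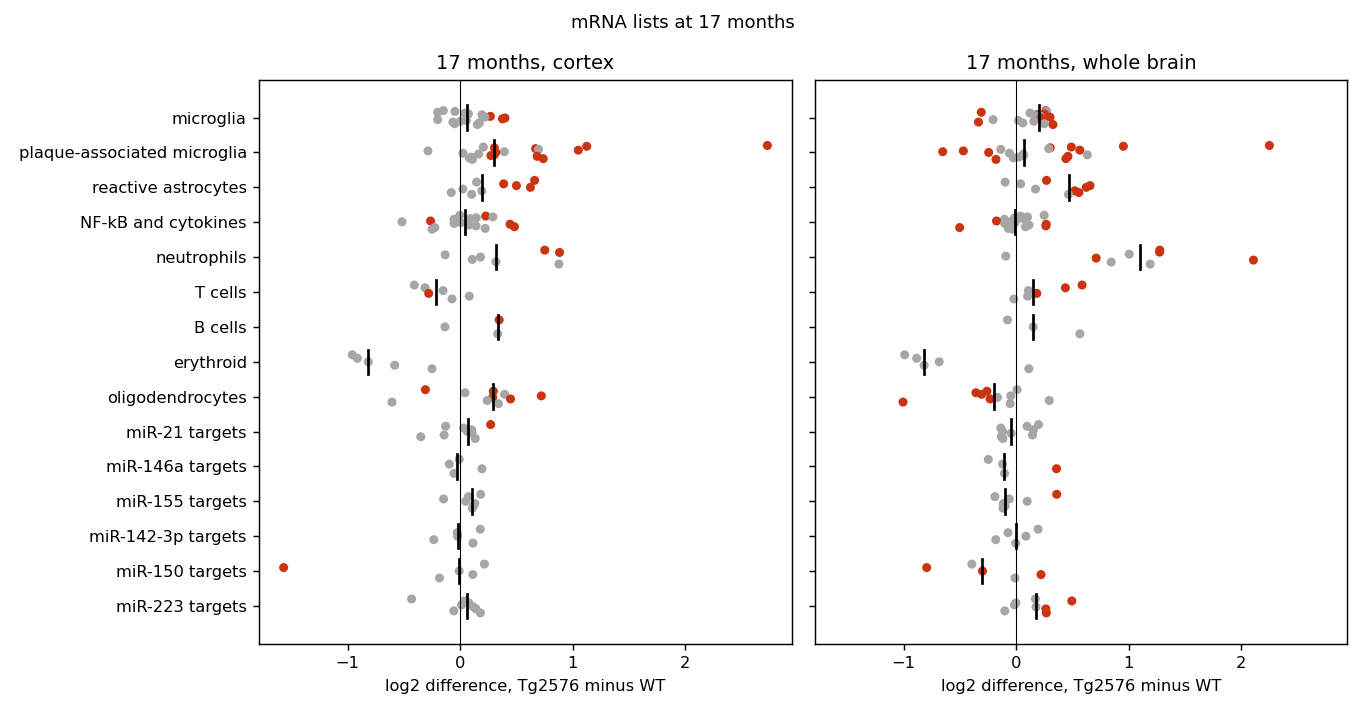
Log2 difference of Tg2576 minus WT mice at 17 months for the genes of each list, in cortex and whole brain; each point is 1 gene, the bar is the list's median, and red marks an unadjusted p under 0.05. In cortex, genes of plaque-associated microglia lie to the right (median 0.30). The lists of miRNA targets centre near 0 there, with Egr2 far to the left among the miR-150 targets (-1.57). In whole brain the medians of the target lists range from -0.30 (miR-150) to 0.17 (miR-223).

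For known targets of the members, the list medians in the 17-month-old cortices were 0.06 for miR-21, -0.03 for miR-146a, 0.11 for miR-155, -0.02 for miR-142-3p, -0.01 for miR-150 and 0.06 for miR-223 (log2 difference). Of the 9 miR-21 targets, 6 were higher and 3 lower. Pdcd4, a translation inhibitor and classical miR-21 target, was 5.60, 5.56 and 5.69 in WT and 5.90, 6.01 and 5.76 in Tg2576 cortices, a difference of 0.27 in the same direction as mmu-miR-21 (adjusted p = 0.513), and -0.23 in the cortices of 10 months. Rhob, the next by p, differed by 0.13. In the 17-month-old whole brains the medians of the target lists ranged from -0.30 for miR-150 (4 of 5 lower) to 0.17 for miR-223 (5 of 8 higher).

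Among the 5 miR-150 targets, Egr2, an immediate early transcription factor, was lower in Tg2576 mice together with mmu-miR-150. It measured -0.46, -0.41 and 0.20 in WT and -1.62, -2.47 and -1.31 in Tg2576 cortices of 17 months, a difference of -1.57 (SE 0.33, adjusted p = 0.502). In the whole brains of 17 months it was lower by 0.80 on the log2 scale (-0.80, SE 0.16, adjusted p = 0.342), where mmu-miR-150 differed by -0.01.

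For the other target lists the 2 genes with the lowest p in the 17-month-old cortices are given, and none of them had an unadjusted p under 0.05. The miR-146a targets Irak2 and Irak1, kinases of Toll-like receptor signalling, differed by 0.19 and -0.10. The miR-155 targets Inpp5d, a phosphatase of immune cells, and Bach1, a transcription repressor, differed by 0.18 and 0.13. The miR-142-3p targets Il6st, the shared receptor subunit of the interleukin 6 family, and Adcy9, an adenylate cyclase, differed by -0.24 and 0.18. The miR-223 targets Mef2c and Stat3, both transcription factors, differed by -0.43 and 0.14. Vmp1, whose gene overlaps Mir21a, differed by -0.04 in the 17-month-old cortices and -0.06 in the whole brains.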

How the data were processed

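Total RNA of 48 samples was hybridized to 1-colour Agilent arrays (24 miRNA, 24 mRNA). The authors deposited spot intensities from Agilent Feature Extraction 10.7.3.1, with the background subtracted and no normalization across arrays. For each assay the authors also deposited log2 values, used here as an alternative. By comparison with the scanner files these log2 values are the total signal per miRNA, or the signal per mRNA probe, minus a constant per array, with medians from -11.98 to -9.58 per miRNA array and from -3.38 to -3.22 per mRNA array. The basis of that constant is not given in the sources used here. Outlier spots were dropped before the spots of a probe were averaged. miRNA values were scaled, floored and taken to log2 as the report states. mRNA values were log2 intensities minus the 75th percentile of the array. A miRNA or mRNA probe was tested if at least 2 of the 3 arrays in a group read it well above background.

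Each comparison used limma 3.58.1 (lmFit, eBayes) in R 4.3.3 on its 6 arrays, or 12 for an interaction, with Benjamini-Hochberg adjustment at 0.05 over all features tested. The methods' t-test was an alternative. Where all arrays compared were at the floor, the difference was set to 0. Gene symbols came from RefSeq by transcript (names only), for 139 of 146 list genes and 26056 of 55681 probes, using the probe with the highest mean. The fits were tested on simulated data. 10 oligodendrocyte mRNAs were added as a list after results were seen.

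The members and lists were chosen with earlier results of these data known. All 7 members are named. Of the other lists of miRNAs, those at an unadjusted p under 0.05 are named, of the lists of genes up to 5 with the lowest p in the 17-month-old cortices, and of the target lists the 2 with the lowest p, except for a gene that is not reported here. Replicate numbers paired the samples for cortex against whole brain in Tg2576 mice of 17 months, by correlation of deviations only (0.15 to 0.62). In no other comparison were the correlations of all 3 replicates above 0. For cortex against whole brain in WT mice of 10 months they were 0.45, -0.17 and 0.42. Such values do not show whether the tissues came from the same mice. Slides were taken from array barcodes. The precision is limited by the number of arrays, 3 in each group. Alternatives, whose effect the closing section gives, were other scalings, background corrections, floors, blocks, models and leaving out each array.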

Additional observations from a re-analysis of the deposited data

How the results depend on the processing

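The levels of mmu-miR-146a, mmu-miR-150 and mmu-miR-223 lie near the floor, and their differences depended on the background correction and the scaling. Each group has 3 arrays, and few slides hold both groups of a comparison. Of 382 counts of members or list genes called, 348 were within 1.5 times under the alternatives and 34 moved by more. Before any alternative, members were called only for age in Tg2576 cortices (1) and tissue in 17-month-old Tg2576 mice (4). Most of the counts that moved belong to those comparisons. All other counts started at 0, so within 1.5 times meant 0 again. Of 18 member differences with an unadjusted p under 0.05, 10 kept their sign under every alternative. The cause of the changes below was not tested.

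With the 75th percentile over all probes, 3 members were called for genotype in the 17-month-old cortices (with 160 of 255 miRNAs), 2 for age in Tg2576 cortices (103 of 289), 2 for tissue in 17-month-old Tg2576 mice (206 of 330) and 1, mmu-miR-21, for genotype by tissue at 17 months (61 of 339). In that tissue comparison the differences were then 0.33 (mmu-miR-142-3p), 0.40 (mmu-miR-146a), 0.18 (mmu-miR-150) and 0.11 (mmu-miR-223), with a median of all miRNAs of 0.55. With normexp, 4 members were called for age in WT cortices (202 of 312 miRNAs), where mmu-miR-150 was 0.57 and mmu-miR-223 0.55 and the median of all miRNAs 0.43. With normexp 4 were also called for tissue in 17-month-old WT mice (217 of 334), at 0.39 (mmu-miR-142-3p), 0.63 (mmu-miR-146a), 0.61 (mmu-miR-150) and 0.52 (mmu-miR-223) with a median of 0.48, and 3 for genotype by age in cortex (169 of 317), where mmu-miR-146a was -0.53 and the median -0.40. It left 0 called for age in Tg2576 cortices, with mmu-miR-150 at 0.0095, and 0 for tissue in 17-month-old Tg2576 mice, at 0.0193 (mmu-miR-142-3p), 0.28 (mmu-miR-146a), 0.24 (mmu-miR-150) and 0.15 (mmu-miR-223).

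For age in Tg2576 cortices, quantile normalization, the authors' log2 values, all 12 arrays in 1 model and no filter left 0 members called (0, 1 and 0 of 289 miRNAs and, with no filter, 0 of 1080), and the total signal per miRNA gave 2 (29 of 289). For tissue in 17-month-old Tg2576 mice, quantile normalization (with mmu-miR-146a at 0.0366), scaling by the median, the authors' log2 values and no filter left 0 (0, 0 and 4 of 330 miRNAs and, with no filter, 3 of 1080), the total signal and all 24 arrays in 1 model 1 (10 and 4 of 330), and the methods' t-test and all 12 arrays 2 (9 and 8 of 330). With each array left out in turn, the number called ranged from 0 to 1 for genotype in the 17-month-old cortices, from 0 to 2 for age in Tg2576 cortices and from 0 to 2 for tissue in 17-month-old Tg2576 mice.

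With the replicate number as a block, 0 members were called for age in Tg2576 cortices (mmu-miR-150 at -0.53, adjusted p = 0.0523), although the numbers do not pair those samples. The block moved no other count by over 1.5 times.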
